A study of Mus musculus with 36 samples.

Results

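The interferon regulatory factors were found on the panel as the genes whose symbol is Irf followed by 1 digit, and 8 of them are described, out of 988 genes measured. The rule uses the symbol and no measured value, and it was set with earlier results of these data known. RNA of mouse colon lesions and colon tumours was read with a targeted immuno-oncology panel, which amplifies a short stretch of each chosen transcript, in 34 libraries of 9 groups. All AOM groups received azoxymethane (AOM), a colon carcinogen injected intraperitoneally. Colon tumours came from C57BL/6 wild-type mice and from C57BL/6 (cKitw-sh) mice, called sash below, 5 libraries each, at 32 weeks of age and 18 weeks after the last of 6 AOM doses of 10 mg/kg. Preneoplastic colon lesions came from the same genotypes, 3 libraries each, at 14 weeks and 3 weeks after 3 AOM injections. The dose per injection is not given for any lesion group. A second set of lesions came from wild-type mice only, also at 14 weeks and 3 weeks after 3 AOM injections. It held 3 libraries each of AOM only, of cromolyn given with AOM for 3 weeks, and of cromolyn given for the 3 weeks after AOM. Cromolyn is a mast cell stabiliser. The labels of the last groups give no age or implantation site, and name no strain beyond the code B6 in the wild-type titles. These are tumours of MC-38, a mouse colon carcinoma line, in saline-treated wild-type hosts (4 libraries) and sash hosts (5 libraries). The sash allele lowers the receptor Kit, which mast cells need, but Kit also acts in other cells, so a sash mouse differs from a wild-type mouse in more than mast cells.

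Interferon regulatory factors are transcription factors that share a DNA-binding domain recognising GAAA-containing sites in the promoters of interferon genes and interferon-stimulated genes. Irf3 and Irf7 are switched on downstream of nucleic acid sensors and drive transcription of type I interferons, and Irf9 joins STAT proteins in the complex that carries the type I interferon signal to its target genes. Irf1 is a main effector of interferon gamma and Irf2 is its antagonist on shared sites. Irf4 acts in plasma cells and activated lymphocytes, Irf5 in myeloid and B cells, and Irf8 in macrophages, dendritic cells and B cells.

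The depth was 449880 to 1264354 counts per library. Kit itself was at 334 to 509 CPM (counts scaled to library size) in wild-type lesions and 114 to 143 CPM in sash lesions, and the position of its amplicon relative to the sash mutation is not given in the labels. The mast cell genes Cpa3 and Ms4a2 had 0 counts in all 3 sash lesions, and Tpsab1 was at 0 in the lesions of both genotypes. In the MC-38 table the mast cell protease gene Cpa3 was at 259 to 694 CPM in wild-type hosts and at 3.24 to 6.64 CPM in sash hosts. Levels are CPM scaled with TMM factors within each table, and since every gene has its own amplicon a level of 1 member cannot be set against that of another. The epithelial gene Epcam was at 9591 to 34760 CPM in every AOM library but at 0 to 3.32 CPM in the 9 MC-38 libraries, so the epithelial marker on the panel was absent or nearly so from the tumours labelled with a colon carcinoma line. In bulk RNA, fewer cells of a type and less RNA per cell cannot be told apart. The 4 wild-type and 5 sash libraries of MC-38 leave out 1 sample of each host, which was not analysed here.

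Irf7 moved with a set of interferon-stimulated genes, and promoter windows of both are shown, each 300 bases around the transcript start, from RefSeq on GRCm38.p6, 5′ to 3′ on the gene's strand. The 3 motifs searched, on both strands, were the interferon regulatory factor core AANNGAAA, the longer element GAAANNGAA that can overlap it, and the STAT element TTCNNNGAA. Among 32851 windows of this length, 23.9% held the core, 8.56% the longer element and 8.30% the STAT element. Windows were found for all 8 members (11 windows, since some have 2 starts). Oas3 (chr5:120777610-120777909, minus strand) and Bst2 (chr8:71537423-71537722, minus strand) are targets that fell with Irf7 in sash lesions, and capitals mark matches to either of the first pair of motifs.
Oas3: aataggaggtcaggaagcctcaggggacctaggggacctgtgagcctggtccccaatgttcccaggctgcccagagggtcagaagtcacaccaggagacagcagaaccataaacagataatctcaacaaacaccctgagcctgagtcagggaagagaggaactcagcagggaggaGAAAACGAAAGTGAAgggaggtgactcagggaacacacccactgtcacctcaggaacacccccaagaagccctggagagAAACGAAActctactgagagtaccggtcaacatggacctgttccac
Bst2: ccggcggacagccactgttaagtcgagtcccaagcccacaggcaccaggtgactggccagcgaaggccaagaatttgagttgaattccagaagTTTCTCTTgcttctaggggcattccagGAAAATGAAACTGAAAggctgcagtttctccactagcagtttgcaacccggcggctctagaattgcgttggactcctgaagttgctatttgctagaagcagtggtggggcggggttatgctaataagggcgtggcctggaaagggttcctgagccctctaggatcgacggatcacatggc
Irf7 (chr7:141266375-141266674, minus strand) is printed for the contrast, since none of the 3 motifs is in its window.
Irf7: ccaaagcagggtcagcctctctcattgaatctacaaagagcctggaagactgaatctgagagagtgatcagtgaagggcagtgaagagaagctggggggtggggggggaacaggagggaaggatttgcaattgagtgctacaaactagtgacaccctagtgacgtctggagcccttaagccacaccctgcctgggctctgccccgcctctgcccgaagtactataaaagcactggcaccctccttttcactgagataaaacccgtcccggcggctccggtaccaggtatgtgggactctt
Irf2 (chr8:46739495-46739794, plus strand) is the only one of the 8 members whose window holds the core, again in capitals.
Irf2: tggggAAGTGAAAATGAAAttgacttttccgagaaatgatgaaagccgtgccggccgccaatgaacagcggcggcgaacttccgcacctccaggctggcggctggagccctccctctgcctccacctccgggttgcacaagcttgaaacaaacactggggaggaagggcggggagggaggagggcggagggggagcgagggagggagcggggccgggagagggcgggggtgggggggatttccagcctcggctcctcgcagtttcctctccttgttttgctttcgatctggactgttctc
Irf1 (chr11:53769764-53770063, plus strand, the first of its 2 starts) holds the STAT element, here in capitals, as do Irf2 and Irf8.
Irf1: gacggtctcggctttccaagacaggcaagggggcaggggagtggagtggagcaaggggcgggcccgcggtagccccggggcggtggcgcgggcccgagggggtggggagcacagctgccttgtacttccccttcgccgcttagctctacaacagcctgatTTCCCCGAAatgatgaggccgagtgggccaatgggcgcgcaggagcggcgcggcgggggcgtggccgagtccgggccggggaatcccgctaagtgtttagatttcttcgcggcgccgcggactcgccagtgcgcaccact
Of the 11 type I interferon target genes on the panel, 8 had a window and all 8 of these held the core, 6 held the longer element and 3 the STAT element. A match is a run of letters, not a shown binding site, and the lack of a match concerns these windows only.

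Irf7, which amplifies type I interferon production, was the member that fell in preneoplastic lesions of sash mice. Its level was 4421, 4902 and 2788 CPM in the 3 wild-type lesions and 986, 1171 and 1184 CPM in the 3 sash lesions. Every sash library lay below every wild-type library, and the wild-type lesions were the most variable of the pair. The means were 4037 ± 1108 and 1114 ± 111 CPM (SD, n = 3 each), a 3.63-fold difference, with a log2 fold change of -1.89 (SE 0.25, edgeR adjusted p = 0.0144). Over all genes, 22 of 775 tested passed (2.84%), 4 higher and 18 lower in sash lesions, and 1 of the 8 members did. Same-numbered lesion libraries deviated together (r = 0.109 to 0.451), though no label pairs them. With the replicate number as a block (the replicate block) the log2 fold change of Irf7 was -1.85 (edgeR adjusted p = 0.000688). The call was lost under 3 of 13 alternatives: without sash lesion 2 (log2 -1.91, edgeR adjusted p = 0.0537, where no gene of the panel passed), with scaling by Rpl13a (edgeR adjusted p = 0.302) and in a fit of all 25 AOM libraries (edgeR adjusted p = 0.0696). Its log2 fold change ran from -2.10 to -1.65 over the 13.

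Irf1, the effector of interferon gamma, stood on the other side. It measured 2393, 2771 and 2207 CPM in wild-type lesions and 3618, 4104 and 3624 CPM in sash lesions, so the sash libraries were all higher. The log2 difference of 0.60 (SE 0.18) did not pass in the fit without the replicate block (edgeR adjusted p = 0.118). Irf1 passed with that block (0.60, edgeR adjusted p = 0.0293), where 2 members and 84 genes passed, but no label pairs these libraries. Its antagonist Irf2 overlapped between genotypes, at 1284 to 1529 CPM in wild type and 1467 to 1656 CPM in sash.

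Irf4, Irf5 and Irf9 lay lower in sash lesions without passing, and Irf8 and Irf3 lay higher without passing. Irf4 was at 63.7, 68.2 and 55.6 CPM (36, 45 and 59 counts) in wild-type lesions and at 14.3, 34.7 and 33 CPM (8, 25 and 28 counts) in sash lesions, with no overlap and a log2 difference of -1.19 (SE 0.42, edgeR adjusted p = 0.169). Irf5 was at 140, 115 and 81.9 CPM against 55.5, 55.6 and 69.6 CPM, a log2 difference of -0.91 (SE 0.36, edgeR adjusted p = 0.210). Irf9, the partner of the STAT proteins, ran from 825 to 1066 CPM against 635 to 735 CPM, a log2 difference of -0.47 (SE 0.18, edgeR adjusted p = 0.210). Irf8, though also a factor of B cells and myeloid cells, was at 504 to 561 CPM in wild type and 596 to 659 CPM in sash, and Irf3 at 240 to 285 and 307 to 381 CPM. In all, the groups did not overlap for 7 of the 8 members, 3 higher and 4 lower in sash, against 188 of the 775 genes tested (24.3%), 78 higher and 110 lower, and the median log2 difference over the members was -0.15 against 0.05 over all genes tested.

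Of the marker lists, the sums for B cells, plasma cells (151 to 220 CPM in wild-type and 131 to 136 CPM in sash lesions) and mast cells (386 to 541 CPM and 133 to 158 CPM) did not overlap between the same libraries, while those for surface colonocytes and dendritic cells did. Most of the mast cell sum was Kit (334 to 509 CPM and 114 to 143 CPM), which the sash allele lowers and which also acts in other cells. The 7 B cell markers on the panel (of 8 names, none at 0) summed to 671 to 2426 CPM in wild-type lesions and 42.4 to 238 CPM in sash lesions, and the surface colonocyte pair Car4 and Tmigd1 (of 6 names) to 27524 to 36005 and 33788 to 62476 CPM. Only 2 of 10 dendritic cell names were on the panel, at 127 to 568 CPM in wild-type and 122 to 139 CPM in sash lesions. Their part in the differences of Irf7, Irf1, Irf4 and Irf5 was not tested.

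**Figure D1:**
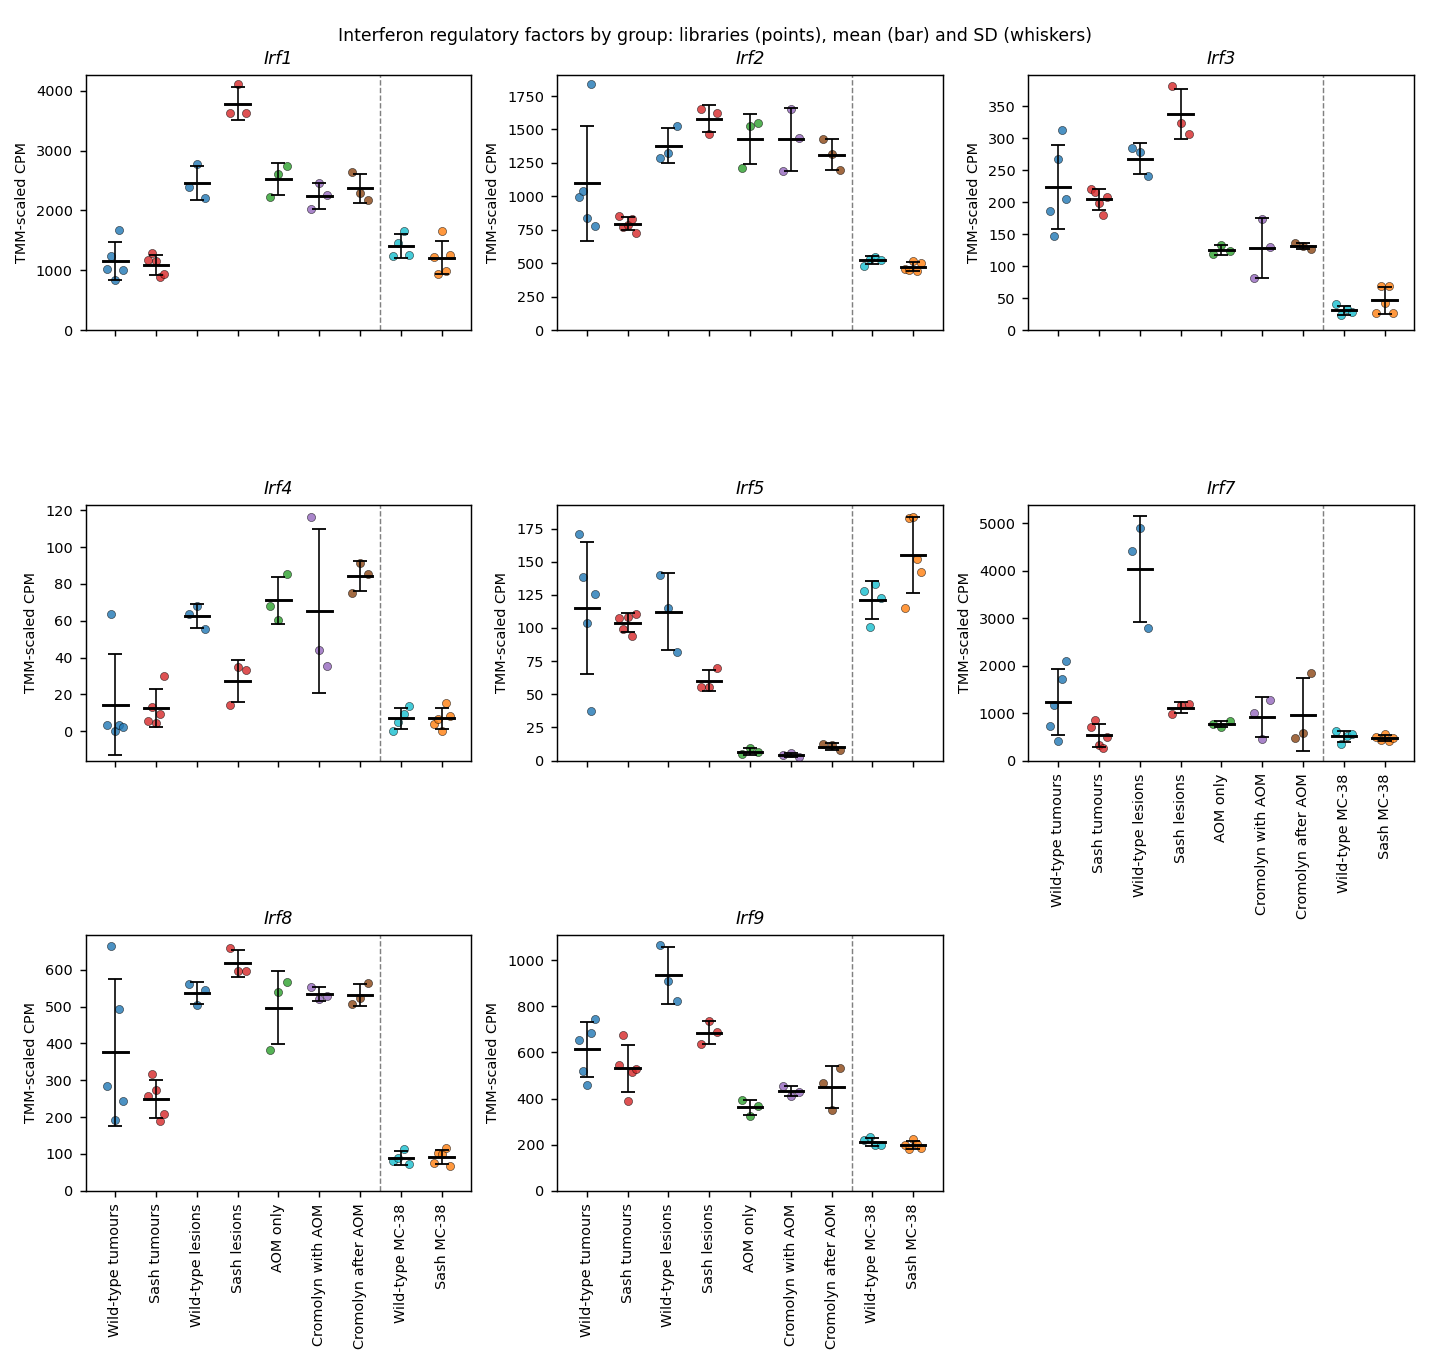
TMM-scaled CPM (vertical axes, linear) of each interferon regulatory factor in each library, by group, with group means (bars) and SD (whiskers); the dashed line separates the AOM table from the MC-38 table, which were scaled separately. Irf7 stands highest in the 3 wild-type lesions (2788 to 4902 CPM), and Irf5 is at 2.37 to 12.2 CPM in the 9 libraries of the cromolyn experiment.

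The rest of the pathway was read from lists of its genes, ordered from sensor to target. Of 13 sensors and adaptors tested in lesions 1 fell, Ddx58, which encodes the RNA sensor RIG-I, from 278 ± 34.9 to 124 ± 18.2 CPM (SD, n = 3 each; log2 -1.19, edgeR adjusted p = 0.0490). None of the 3 interferon genes on the panel (Ifna2, Ifnb1 and Ifng) had enough counts to be tested, and neither of the 2 interferon receptors nor any of the 4 JAK-STAT genes passed. Type I interferon targets lay below 0 in 11 of 11 tested, with a median log2 difference of -1.47 against 0.05 over all genes, and 5 of the 11 fell. The members that fell were Oas3, Oas2 and Oasl1 of the oligoadenylate synthetase family that senses double-stranded RNA, Bst2, which tethers budding virus at the cell surface, and Sp100, a nuclear body protein. Oas3 was at 1095, 1265 and 634 CPM in wild-type and 170.0, 129 and 88.4 CPM in sash lesions (log2 -2.99, SE 0.34, edgeR adjusted p = 0.0102). Bst2 was at 4518, 3145 and 2675 CPM against 976, 1117 and 1214 CPM, Oasl1 at 1151, 1273 and 698 CPM against 465, 408 and 345 CPM, and Sp100 at 1950.5, 1412 and 1196 CPM against 551, 629 and 505 CPM. As for Irf7, no sash library reached a wild-type library for any of these 4 targets or for Oas2 (388 to 1451 against 53.1 to 139 CPM). The copies Oas1a, Oas1b and Oas1g are near-identical in sequence, so their counts may be shared and are uncertain.

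Of 15 interferon gamma targets tested in lesions, 11 lay above 0 and 4 below, the median log2 difference was 0.15 against 0.05 over all genes, and 1 fell, B2m, the light chain of MHC class I, from 45116 to 50697 CPM in wild-type to 23247 to 28615 CPM in sash lesions (log2 -0.91, edgeR adjusted p = 0.0401). Of the 4 feedback genes all lay above 0 and 1 rose, Nfkbia, the inhibitor of NF-kappaB (log2 0.85, edgeR adjusted p = 0.0476).

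In AOM tumours no member passed between genotypes, and no gene of the panel did (0 of 797, 0%). Of the 7 members tested with edgeR all 7 log2 differences were below 0, with a median of -0.23 against -0.04 over all genes; 2 members had an unadjusted p under 0.05 and DESeq2 called 0. Over all genes 159 had an unadjusted p under 0.05, and DESeq2 called 82. Irf7 was at 721, 1175, 407, 1720 and 2103 CPM in wild-type tumours and 713, 852, 335, 273 and 487 CPM in sash tumours. These overlap: 3 wild-type libraries lie above all sash libraries and 2 do not, and the log2 difference was -1.23 (SE 0.45, edgeR adjusted p = 0.173). Irf2 was at 994, 1037, 842, 1840 and 776 CPM against 853, 775, 790, 828.5 and 727 CPM, with wild-type tumour 4 far above the others, and its log2 difference of -0.48 (edgeR adjusted p = 0.227) was -0.13 without wild-type tumours 2 and 4. Irf8 was at 191 to 665 CPM against 189 to 317 CPM, and the other tested members differed by a factor of at most 1.16 between means. Of the 11 type I targets 0 passed, with 7 below 0 and a median log2 difference of -0.23. Neutrophil markers (4 of 8 names on the panel) summed to 62.0 to 257 CPM in wild-type and 367 to 735 CPM in sash tumours, and their part in the members' values was not tested.

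Irf4 was too low in tumours to be tested. It had 4, 45, 0, 3 and 2 counts in the wild-type tumours and 7, 16, 6, 11 and 33 in the sash tumours. Pooled over libraries, 73 counts in sash against 54 in wild type give a ratio of 1.06 (exact 95% interval 0.73 to 1.53, counting error only). Without wild-type tumour 2, which held 45 of the 54, the ratio was 5.47 (2.73 to 12.4), and without sash tumour 5 it was 0.71 (0.46 to 1.08). That wild-type tumour also stood apart in B cell markers, which summed to 641 CPM there against 21.7 to 35.4 CPM for the rest of its group; the part of B cells in its Irf4 was not tested. The count of 0 in wild-type tumour 3 allows up to 3.24 CPM of Irf4 (3 counts over the library total, without the TMM factor).

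The difference between the genotype effect in tumours and that in lesions was tested directly as an interaction. None of 848 genes passed (0%), with 128 at an unadjusted p under 0.05 and 21 called by DESeq2. None of the 8 members passed with edgeR, 2 had an unadjusted p under 0.05 and DESeq2 called 0. For Irf7 the interaction was 0.69 (SE 0.63, edgeR adjusted p = 0.601), so a genotype difference seen in lesions and not called in tumours is not shown to differ between the stages. Irf1 (-0.67, SE 0.27, edgeR adjusted p = 0.272) and Irf2 (-0.63, SE 0.30, edgeR adjusted p = 0.326) were the pair with an unadjusted p under 0.05.

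**Figure D2:**
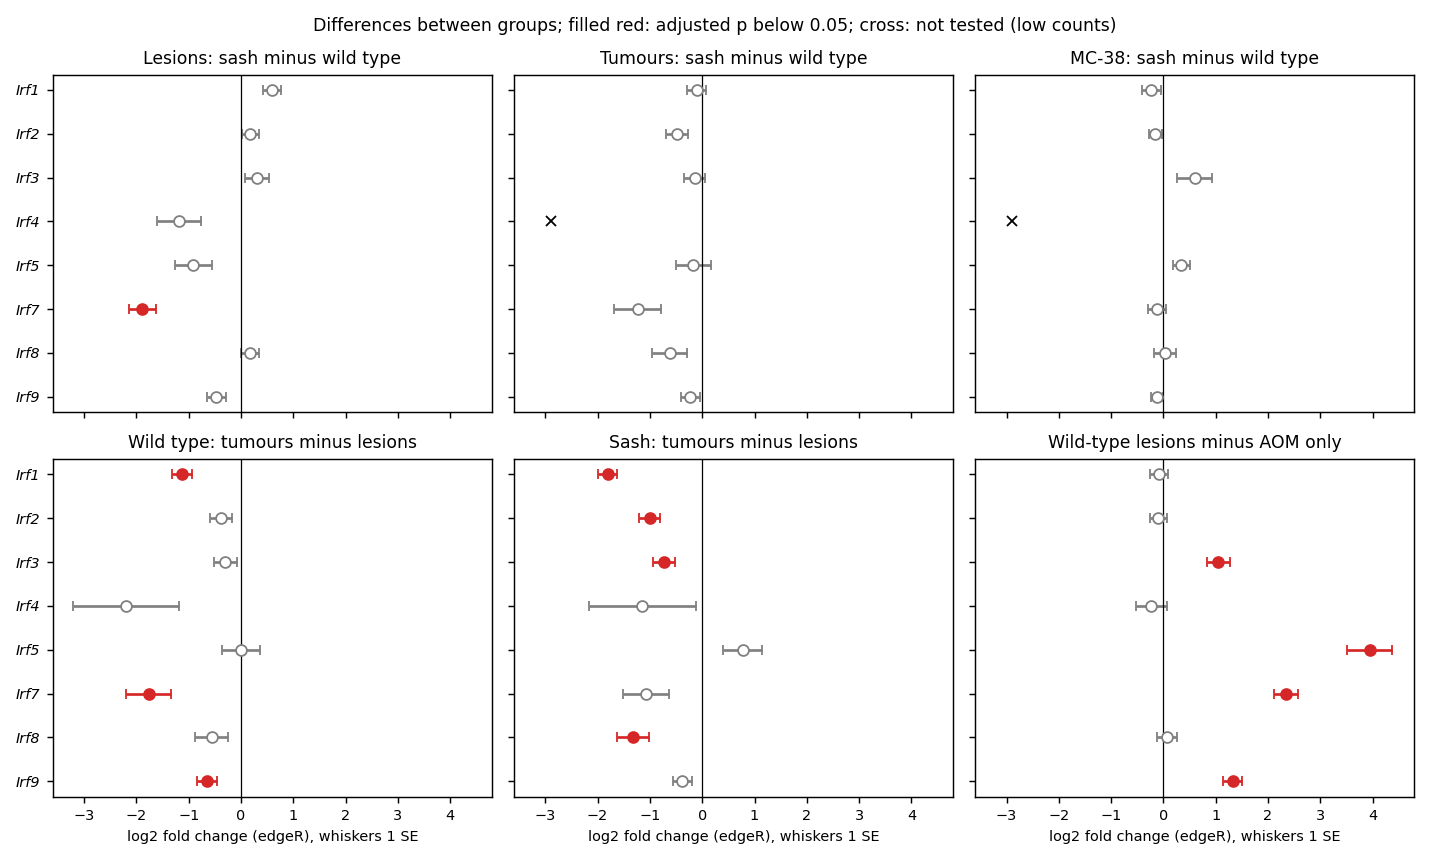
log2 fold changes from edgeR (horizontal axes, whiskers 1 SE) of the 8 members in 6 comparisons; filled red points passed an adjusted p of 0.05, open points did not, and a cross marks a member with too few counts to be tested (its place on the axis has no meaning). Irf7 is the filled point in lesions by genotype, at -1.89, and none is filled in either kind of tumour by genotype.

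From lesions to tumours the members that passed all fell. The groups also differ in age, number of AOM doses and time since the last dose, and the size of the dose is not given for the lesions. Tumours held far less of the surface colonocyte pair (257 to 15063 CPM in wild-type and 101 to 1482 CPM in sash tumours, against 27524 to 62476 CPM in the lesions of both genotypes), and its part in these changes was not tested. In wild type 3 of 8 members passed against 314 of 848 genes (37.0%), and in sash 4 of 8 against 403 of 848 (47.5%), so the members' share is near the background in each.

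Irf1 fell from lesion to tumour in both genotypes. In wild type it went from 2207 to 2771 CPM in lesions to 843 to 1679 CPM in tumours (log2 -1.13, SE 0.18, edgeR adjusted p = 0.000405), and in sash from 3618 to 4104 CPM to 891 to 1292 CPM (log2 -1.80, SE 0.18, edgeR adjusted p = 1.01e-05). No tumour library reached a lesion library in either genotype. Irf7 fell in wild type, from 4037 ± 1108 CPM (SD, n = 3) to 1225 ± 697 CPM (SD, n = 5; log2 -1.77, SE 0.43, edgeR adjusted p = 0.00637). In sash the Irf7 libraries did not overlap either, 986 to 1184 CPM against 273 to 852 CPM, but the log2 difference of -1.08 gave an edgeR adjusted p of 0.0521. Irf9 fell in wild type, from 934 ± 122 to 613 ± 118 CPM (log2 -0.65, edgeR adjusted p = 0.0138), and lost that call without wild-type lesion 1 (edgeR adjusted p = 0.105), with library totals (0.0935) and with scaling by Rpl13a (0.225).

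Irf2, Irf3 and Irf8 fell in sash. Irf2 went from 1582 ± 101 CPM (SD, n = 3) in sash lesions to 795 ± 48.8 CPM (SD, n = 5) in sash tumours (log2 -1.01, edgeR adjusted p = 0.00114). Irf8 went from 617 ± 35.7 to 249 ± 51.2 CPM (log2 -1.32, edgeR adjusted p = 0.00317). Irf3 went from 337 ± 39.1 to 205 ± 16.3 CPM (log2 -0.73, edgeR adjusted p = 0.0118), a call lost without sash lesion 1 (edgeR adjusted p = 0.0596) and with scaling by Rpl13a (edgeR adjusted p = 0.117). In wild type the log2 differences were -0.38 for Irf2, -0.30 for Irf3 and -0.56 for Irf8, none of which passed. Without wild-type tumours 2 and 4, 6 members passed, Irf2, Irf4 and Irf8 among them. Without wild-type tumour 2 alone the log2 difference of Irf4 was -4.78 (edgeR adjusted p = 0.000214), against -2.20 (edgeR adjusted p = 0.0967) with it. These libraries stand apart through their own high Irf4 (tumour 2) and Irf2 (tumour 4). Leaving them out by itself enlarges the fall of those members, so the calls gained are no support for a fall. The share over all genes is not given for these fits.

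Irf5 did not pass in either genotype (log2 0.01 in wild type and 0.77 in sash, edgeR adjusted p = 0.989 and 0.102).

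The targets moved with the same sign as Irf7 in most cases. Of 11 type I interferon targets in wild type 9 fell and 1 rose from lesion to tumour (median log2 -1.77), and in sash 5 fell and 1 rose (median -0.73), against medians of 0.00 and 0.02 over all genes. The gene that rose was Ifitm3, an antiviral membrane protein, in both genotypes. Of 16 interferon gamma targets, 4 fell (Gbp2b, Psmb9, B2m and Wars) and 1 rose (Icam1) in wild type, and 8 fell and 2 rose (Nos2 and Icam1) in sash. These names were picked out after their values were seen. The median log2 difference of this list was -0.68 in wild type and -1.14 in sash. Beside the counts of both lists, 37.0% of all genes passed in wild type and 47.5% in sash.

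No member was called with cromolyn, at 3 libraries a group. Both cromolyn groups are compared with the same AOM-only libraries, so the results are given side by side. With cromolyn during AOM, 2 of 768 genes passed (0.26%), with cromolyn after AOM 37 of 768 did (4.82%), and between the cromolyn groups 0 of 768 (0%, 64 at an unadjusted p under 0.05, 6 by DESeq2). With edgeR 0 of the 7 tested members passed in any of the 3 comparisons, 0 had an unadjusted p under 0.05 and DESeq2 called 0. The log2 differences from AOM only ran from -0.18 to 0.24 with cromolyn during AOM and from -0.14 to 0.30 with cromolyn after it. Irf7 was at 778, 711 and 828 CPM in the AOM-only group, at 1010.0, 463 and 1281 CPM with cromolyn during AOM and at 474, 575 and 1851 CPM with cromolyn after AOM. The AOM-only libraries lay close together and the cromolyn libraries on both sides of them: the SD was 58.5 CPM in the AOM-only group and 417 and 767 CPM in the cromolyn groups, and the SE of the log2 difference was 0.53 in each comparison. Irf9 was higher in all 3 libraries of cromolyn during AOM (412 to 455 CPM) than in the AOM-only libraries (325 to 393 CPM), with a log2 difference of 0.24 (edgeR adjusted p = 0.447). Irf1 stayed at 2024 to 2744 CPM in all 9 libraries. Of the 11 type I targets none passed in either comparison, though 11 and 10 of them lay above 0. Beside this, the B cell markers summed to 145 to 346 CPM in the AOM-only group, 454 to 2099 CPM with cromolyn during AOM and 305 to 1870 CPM with cromolyn after it. The surface colonocyte pair summed to 31510 to 44897, 12404 to 33722 and 8881 to 23402 CPM. The part of either list in these values was not tested.

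Wild-type lesions of the genotype experiment and AOM-only lesions of the cromolyn experiment carry the same labelled treatment, strain and age. They differed nonetheless in 119 of 762 genes (15.6%), 66 higher and 53 lower in the genotype experiment, and in 4 of the 8 members, all higher there. Irf5 was at 79, 76 and 87 counts in the wild-type lesions and at 2, 5 and 3 counts in the AOM-only group (112 ± 29.0 against 6.72 ± 2.43 CPM, SD, n = 3 each; log2 3.95, SE 0.43, edgeR adjusted p = 0.000531). All 9 libraries of the cromolyn experiment held 1 to 6 counts of Irf5, while the 16 tumour and lesion libraries compared by genotype held 31 to 208. Irf7 was 5.23 times as high (log2 2.34, edgeR adjusted p = 0.000492), Irf9 2.58 times (log2 1.32, edgeR adjusted p = 0.00288) and Irf3 2.13 times (log2 1.04, edgeR adjusted p = 0.0174). The call for Irf3 ended when any 1 of the AOM-only libraries was left out (edgeR adjusted p 0.0853 to 0.0870), and with scaling by Rpl13a those for Irf3 (edgeR adjusted p = 0.494) and Irf9 (edgeR adjusted p = 0.274) both ended. Irf1, Irf2 and Irf8 differed by a factor of at most 1.08 between means.

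Of the 11 type I targets 8 were also higher in the wild-type lesions than in the AOM-only group (median log2 1.64 over the 11, 0.01 over all genes). The Irf7 level of sash lesions, 986 to 1184 CPM, thus lay between that of AOM-only lesions, 711 to 828 CPM, and that of wild-type lesions, 2788 to 4902 CPM. For Irf5 the sash lesions, at 55.5 to 69.6 CPM, were far above the AOM-only group, at 4.67 to 9.40 CPM. The B cell markers of the AOM-only group (145 to 346 CPM) lay below those of the wild-type lesions (671 to 2426 CPM). The labels name no batch, so what differed between the 2 sets of lesions cannot be told apart from the groups.

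MC-38 tumours showed no member called between hosts. Of 714 genes 9 passed (1.26%) and with edgeR 0 of the 7 members tested, 0 with an unadjusted p under 0.05 and 0 by DESeq2. Irf7 was at 618, 342, 525 and 560 CPM in wild-type hosts and 493, 437, 564, 411 and 477 CPM in sash hosts (log2 -0.12, SE 0.17, edgeR adjusted p = 0.714). The groups overlap, and the spread between libraries is narrow beside that in AOM tumours, where the highest Irf7 library was 2103 CPM and the lowest 273 CPM. Irf5 was at 101 to 133 CPM against 115 to 183 CPM, with 4 of 5 sash libraries above all wild-type libraries (log2 0.34, SE 0.17, edgeR adjusted p = 0.262), and Irf3 at 23.3 to 40.5 against 26.7 to 69.7 CPM (log2 0.60, SE 0.34, edgeR adjusted p = 0.315). Irf1, Irf2, Irf8 and Irf9 had log2 differences of -0.23 to 0.03. Irf4 had 0 to 14 counts a library and was not tested; pooled, 25 counts in sash against 22 in wild type gave a ratio of 1.10 (exact 95% interval 0.59 to 2.04, counting error only), and the ratio was 0.67 (0.29 to 1.44) without sash replicate 5.

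Ifng was measurable in MC-38 tumours, at 115 to 231 CPM, while it was at 12.2 CPM or less in every AOM library; this compares levels across tables scaled separately. Of 11 type I targets 0 passed between hosts, and of 16 interferon gamma targets 1 rose, Ciita, the MHC class II transactivator (log2 0.84, edgeR adjusted p = 0.0422).

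Ordered by group mean within the AOM table, the members' profiles were alike in part. Irf1, Irf2, Irf3 and Irf8 were all highest in sash lesions, and Irf1, Irf2, Irf4, Irf7 and Irf8 were all lowest in sash tumours. Irf7 spanned the widest range among the well-counted members, from 532 CPM in sash tumours to 4037 CPM in wild-type lesions (7.59-fold), and below the wild-type lesions every neighbouring pair of groups overlapped. Irf1 ran from 1091 CPM in sash tumours to 3782 CPM in sash lesions, with a gap above the 2 tumour groups and another below the sash lesions. Irf2 ran from 795 to 1582 CPM with every neighbouring pair overlapping. Irf3 was high in the tumours and lesions compared by genotype (205 to 337 CPM) and low in the cromolyn experiment (125 to 132 CPM). Sash tumours (179 to 220 CPM) did not overlap the next group down, cromolyn after AOM (128 to 136 CPM). Irf8 was lowest in the tumours (249 and 375 CPM) and highest in sash lesions (617 CPM). Irf9 was highest in wild-type lesions (934 CPM) and lowest in the AOM-only group (362 CPM).

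Likeness was read within groups, as Pearson's r of the deviations of log2(CPM + 1) from each group's mean over the 25 AOM libraries, among 846 genes. The points share library depth and tissue makeup, so r is a description. The closest genes to Irf7 were Oasl1 (r = 0.92), Oas3 (0.92) and Sp100 (0.88), with 0.76, 0.60 and 0.22 in the 9 MC-38 libraries. With the mean of all 11 type I targets Irf7 had r = 0.89 in the AOM libraries and 0.67 in the MC-38 libraries, and Irf9 0.75 and 0.49. The other members were at -0.27 to 0.23 with these targets in the AOM libraries. Irf9 was closest to Ifit3 (0.72), Oas1a (0.69) and Irf7 (0.69), though with Irf7 it was at -0.11 in the MC-38 libraries.

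**Figure D3:**
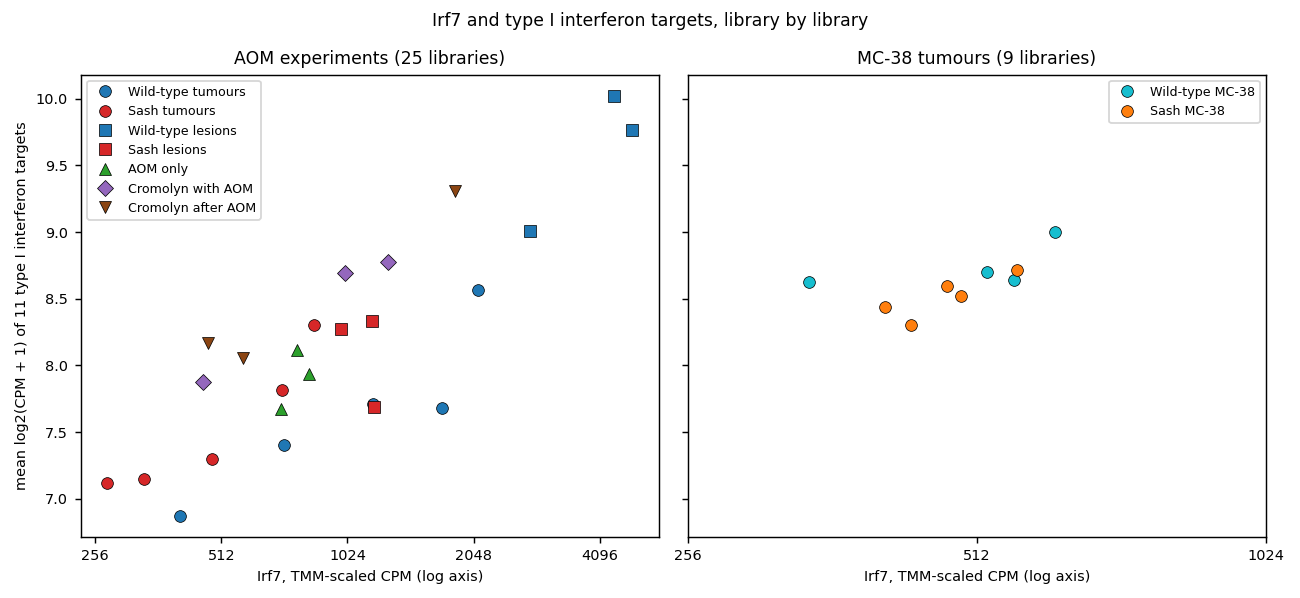
Irf7 level (horizontal, TMM-scaled CPM on a log axis) against the mean log2(CPM + 1) of 11 type I interferon targets (vertical) in each library, coloured by group, in AOM experiments (left) and MC-38 tumours (right). The 3 wild-type lesions sit at the upper right with mean target levels of 9.0 to 10.02, and sash lesions at 7.69 to 8.33; the high cromolyn library with Irf7 at 1851 CPM has 9.30.

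The other members had other genes closest to them, with Mical2 shared by Irf1 and Irf8. Irf1 was closest to Tapbpl (0.82), which edits peptides on MHC class I, Wars (0.82), an interferon gamma-induced tRNA synthetase, and Mical2 (0.82), with 0.77, 0.87 and 0.84 in the MC-38 libraries. With the mean of 16 interferon gamma targets Irf1 had r = 0.15 in the AOM libraries and 0.63 in the MC-38 libraries. Irf7 (0.45), Irf8 (0.35) and Irf4 (0.33) were above it in the AOM libraries. Irf1 and Irf2 had r = 0.72 with each other in AOM and 0.85 in MC-38 libraries. Irf1 and Irf8 were as close in the AOM libraries (0.72) but not in the MC-38 libraries (0.07). Irf2 was closest to Vdr (0.84), Atp9a (0.83) and Erbb2 (0.82), and Irf3 to Mettl7a1 (0.87), Madd (0.79) and Nt5c (0.77). With Irf2, Vdr was at -0.18 and Erbb2 at 0.52 in MC-38, and the genes named for Irf3 were at -0.03, 0.52 and -0.30 with it there. Irf4 was closest to the immunoglobulin kappa constant gene Igkc (0.87), the lymphocyte adaptor gene Lax1 (0.84) and Prg2 (0.82), and had r = 0.82 with the 2 plasma cell markers and 0.62 with the B cell markers. With the JAK-STAT genes Irf4 was at 0.69, with the T cell markers at 0.61 and with the dendritic cell markers at 0.55. These r include tumours with few Irf4 counts. Wild-type tumour 2 held 63.4 CPM of Irf4, against at most 3.29 CPM in the rest of its group. That library was also highest of its group in Igkc (39331 CPM), Lax1 (80.3 CPM) and Prg2 (35.2 CPM), and r was not taken without it. Irf5 was closest to the myeloid receptor gene Clec5a (0.73), Sla (0.68) and Chil1 (0.67), though the cromolyn-experiment libraries held only 1 to 6 counts of it. In the MC-38 libraries Irf5 was at -0.37 with Clec5a and 0.59 with Sla. Irf8 was closest to Ifi30 (0.77), Mical2 (0.77) and Prr5 (0.75), which were at 0.92, -0.04 and 0.42 in MC-38. Irf3 was the member with the highest r with Epcam (0.77).

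**Figure D4:**
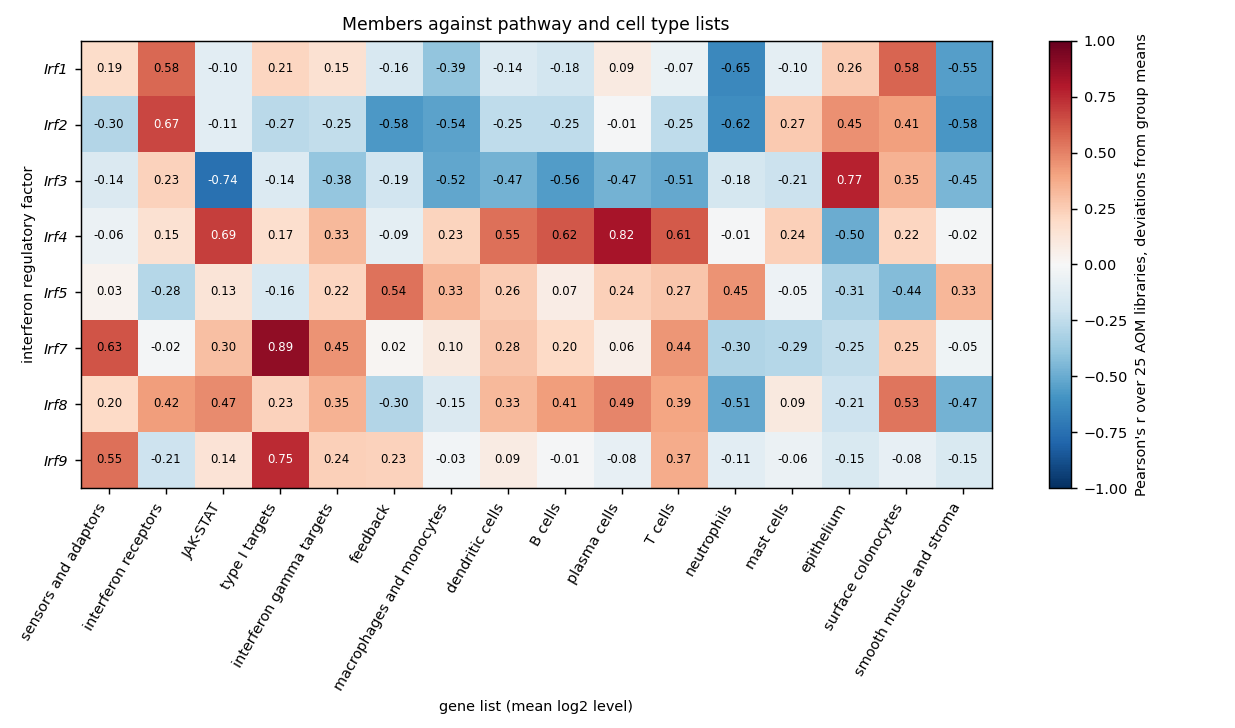
Pearson's r (colour and printed value, -1 to 1) between each member (rows) and the mean log2 level of each pathway or cell type list (columns), as deviations from group means over 25 AOM libraries. Irf7 and Irf9 stand out with the type I targets (0.89 and 0.75), Irf4 with plasma cells (0.82) and Irf3 with the epithelial gene (0.77). The row of Irf4 includes tumours with few counts and the outlying wild-type tumour 2. The row of Irf5 includes cromolyn-experiment libraries with 1 to 6 counts.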

How the data were processed

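The authors deposited whole-number counts per gene of a QIAseq targeted panel, not normalised, in 1 table of AOM samples and 1 of MC-38 tumours. Each lists 993 entries, 5 of them controls at 0, which were left out. The submitters' processing notes name the build mm9 and DESeq2. The sources used here do not give the aligner, the counter or whether molecular tags were counted. All genes were fitted by quasi-likelihood in edgeR 4.0.16 under R 4.3.3, with TMM scaling, filterByExpr (minimum count 10), Benjamini-Hochberg adjustment over every gene tested in a comparison and a threshold of 0.05. Genotype comparisons and wild-type lesions against AOM only used their 2 groups alone; the 3 cromolyn-experiment groups shared a fit, as did the 4 tumour and lesion groups for stage and interaction. The tests were run on simulated data first. Of 36 samples, 34 were analysed. No label says that libraries are from separate mice, so a p-value here reflects only library-to-library spread, which may be technical. Deviations of same-numbered lesion libraries correlated (r = 0.361, 0.109 and 0.451), while elsewhere not every pair exceeded 0.1. No label pairs libraries by number, and the replicate block is given as an alternative fit only. An item that the rules would include is not reported here. The members are described in full; other genes named are those of each pathway list that passed by genotype in lesions (up to 6), and the 3 most alike each member. Ciita, Ifng and the marker genes named singly were chosen after their values were seen. Members and lists were chosen with earlier results of these data known.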

Additional observations from a re-analysis of the deposited data

Results flagged for a closer look

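Irf2 in wild-type tumour 4 lay far above the other 4 wild-type tumours, at 1840 CPM (1780 counts) where the next library was at 1037 CPM. The surface colonocyte pair summed to 15063 CPM in that library and to 257 to 4047 CPM in the other 4, and its part in the Irf2 value was not tested. Irf4 in wild-type tumour 2 lay far above the others, at 63.4 CPM (45 counts) where the next library was at 3.29 CPM. Chance alone marks about 1 in 20 groups in this way, and 32 sets of 4 or 5 libraries were examined.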

How the results depend on the processing

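Of 411 alternative values for 22 results on single members, 387 kept their direction and their side of the threshold, 13 lost the call, 11 gained it and 0 reversed. In lesions by genotype 1 member passed; DESeq2 and the replicate block gave 2, scaling by Rpl13a (the only gene of the housekeeping list on the panel) and the fit of all 25 AOM libraries gave 0, and leaving out 1 library gave 0 to 1. From lesion to tumour, wild type went from 3 members to 2 with Rpl13a scaling and 6 without wild-type tumours 2 and 4, with 2 (without wild-type lesion 1) to 5 (without wild-type tumour 2) on leaving out 1 library; sash went from 4 to 3 with Rpl13a scaling, with 3 (without sash lesion 1) to 6 (without sash tumour 2) on leaving out 1 library. In wild-type lesions against AOM only, Rpl13a scaling gave 2 of 4 and leaving out 1 library 3 to 4. No label pairs libraries by replicate number. With the replicate block Irf4 in wild type (edgeR adjusted p = 0.0425) and Irf7 in sash (0.0261) gained a call from lesion to tumour, for 4 and 5 members. Apart from these and the lesions by genotype, the number of members called was as without it. From lesion to tumour, counts over all genes are given below only with Rpl13a scaling and without wild-type lesion 1. The other member counts from lesion to tumour have no share over all genes beside them, so they are no result about the members. Rpl13a scaling shifted the median of all genes by up to 0.43 and library totals by up to 0.22 (log2). Counts over all genes moved more. Tumours by genotype went from 0 to 82 (DESeq2), 88 (25-library fit), 2 (library totals), 6 (without wild-type tumours 2 and 4) and up to 17 (without sash tumour 1). Lesions went from 22 to 68 (DESeq2), 36 (no low-count filter), 84 (replicate block) and 0 to 68 (without sash lesion 2 and without wild-type lesion 3). Cromolyn with AOM went from 2 to 40 (DESeq2), 18 (library totals), 1 (Rpl13a), 0 (25-library fit), 7 (replicate block) and 0 to 18 on leaving out 1 library; cromolyn after AOM went from 37 to 10 (Rpl13a), 0 (25-library fit), 21 (replicate block) and 1 to 41; between the cromolyn groups 0 became 6 (DESeq2), 3 (library totals), 4 (Rpl13a) and up to 3. MC-38 went from 9 to 35 (DESeq2), 3 (Rpl13a and the replicate block) and 3 to 17. With Rpl13a scaling the stage counts went from 314 to 125 in wild type, also 183 without wild-type lesion 1, and from 403 to 229 in sash. The interaction went from 0 to 21 (DESeq2), 4 (25-library fit), 8 (without wild-type tumours 2 and 4) and up to 10. Wild-type lesions against AOM only went from 119 to 74 (Rpl13a) and 11 to 268 (without AOM-only library 1 and without wild-type lesion 3). The causes were not tested. Depth limits Irf4 in tumours and MC-38, and Irf5 in the cromolyn experiment (1 to 6 counts a library).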
